A study of Mus musculus with 34 samples.

Results

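Saa3, Lcn2, S100a8, S100a9, Chil1 and Chil3 encode secreted acute-phase, S100 and chitinase-like proteins that were followed in mouse bone-marrow-derived macrophages. Their probe sets were found by symbol in the platform's probe-to-gene table, which gave 7 probe sets for the 6 genes, of 12422 probe sets on the array without controls and 8224 tested. The genes were chosen by earlier results of the same arrays, in which several of them rose with IL-10. Their levels with and without IL-10, and across knockouts at 180 min of LPS, are therefore described without a test, while comparisons that the choice did not use are tested.

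Serum amyloid A3 (Saa3) is a lipid-carrying acute-phase protein that macrophages make outside the liver, and lipocalin 2 (Lcn2) binds bacterial iron carriers. S100a8 and S100a9 are calcium-binding proteins that pair as calprotectin and fill the cytoplasm of neutrophils, while Chil1 and Chil3 resemble chitinases but do not cleave chitin. LPS acts through TLR4 on NF-kappaB, and IL-6 and IL-10 act through receptors that activate STAT3; NF-kappaB, STAT3 and C/EBP factors are known regulators of acute-phase genes.

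The study put 34 Affymetrix MG-U74Av2 arrays on macrophages that had been grown from marrow for 7 days and that all received CSF-1. The 4 resting arrays carry no genotype in the labels, and their CSF-1 came from L-cell conditioned medium, a source that the labels of the stimulated cells do not name. The other 15 groups came from 3 genotypes: wild type, IL-10-/- and IL-6-/-. Each of these groups received LPS at 100 ng/ml. It was given alone for 45 or 180 min, with IL-10 at 10 ng/ml for 45 or 180 min, or with IL-6 at 2 ng/ml for 45 min. Each stimulated group had 2 arrays, except IL-6-/- with LPS alone, which had 1 array at each time; in the fits that array was assumed to vary as the others did. In all, 32 arrays fell into 16 groups. The titles call the arrays biological replicates. Nothing in the labels says how many mice stood behind the arrays or which strain or allele the knockouts carried. The p-values therefore measure only the spread between these arrays.

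Values are the deposited probe-set intensity, called signal here, on a linear scale. Differences are on log2 of the signal plus 50, which understates the change of genes with low signal, and are given ± SE with folds on the same scale. A gene was called where its limma p-value, adjusted by Benjamini-Hochberg over all 8224 probe sets, was under 0.05. All arrays had been scaled to about the same level, with trimmed means from 500.29 to 500.4. A free-text label that describes embryos did not match the cells: of 12 macrophage markers, 11 had a signal of at least 200 on all 32 grouped arrays, and Csf1r, which encodes the CSF-1 receptor, ran from 13156 to 33289.1. In such bulk RNA, fewer cells of a type and less RNA per cell cannot be told apart.

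Of the 6 promoters 4 are shown, because at 180 min Saa3, Lcn2, S100a8 and Chil1 were all lower in IL-10-/- than in wild type under LPS alone and all higher with IL-10 in both genotypes. Each line holds the 250 bases before the RefSeq start of the gene in GRCm38.p6, written 5′ to 3′ on the gene's own strand. The windows are chr7:46715677-46715926 (minus strand) for Saa3, chr2:32387740-32387989 (minus) for Lcn2, chr3:90668821-90669070 (plus) for S100a8 and chr1:134181906-134182155 (plus) for Chil1. Capitals mark matches on either strand to a C/EBP motif (TTNNGNAA), a STAT motif (TTCNNNGAA) or an NF-kappaB motif (GGNNNTTCC).
Saa3: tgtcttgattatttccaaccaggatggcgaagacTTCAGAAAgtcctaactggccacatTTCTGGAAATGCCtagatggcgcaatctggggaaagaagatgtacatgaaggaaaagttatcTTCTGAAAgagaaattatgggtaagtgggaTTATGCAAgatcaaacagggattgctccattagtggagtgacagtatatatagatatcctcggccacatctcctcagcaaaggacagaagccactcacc
Lcn2: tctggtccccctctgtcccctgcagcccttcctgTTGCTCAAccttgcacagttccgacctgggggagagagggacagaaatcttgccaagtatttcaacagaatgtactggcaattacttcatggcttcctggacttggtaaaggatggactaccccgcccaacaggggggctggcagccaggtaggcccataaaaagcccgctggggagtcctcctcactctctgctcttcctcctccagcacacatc
S100a8: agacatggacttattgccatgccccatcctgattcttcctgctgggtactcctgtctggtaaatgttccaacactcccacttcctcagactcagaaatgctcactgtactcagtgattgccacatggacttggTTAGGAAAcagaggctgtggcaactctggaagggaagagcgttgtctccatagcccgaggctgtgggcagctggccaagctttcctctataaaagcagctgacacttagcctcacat
Chil1: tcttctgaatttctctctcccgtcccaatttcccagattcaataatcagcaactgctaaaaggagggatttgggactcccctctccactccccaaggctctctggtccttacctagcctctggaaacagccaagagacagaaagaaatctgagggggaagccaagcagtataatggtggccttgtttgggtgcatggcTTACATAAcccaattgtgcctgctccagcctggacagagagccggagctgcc
In Saa3 there were 4 C/EBP matches, and the one that starts 191 bases before the start overlapped the window's single NF-kappaB match, which starts at 187. In Lcn2 the single match, to C/EBP, started 216 bases before the start, in S100a8 117 and in Chil1 52. No STAT match lay in these 4 windows; of the 6 genes Chil3 alone had 1, starting 172 bases before its start. A C/EBP match was found in all 6 members' windows and in 36.9% of the 32841 promoter windows of the table, a STAT match in 7.02% and an NF-kappaB match in 15.7%. A match only says that these letters occur in the window.

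In wild-type cells given LPS alone Saa3, Lcn2 and Chil1 did not pass against resting at 45 min and rose strongly by 180 min. S100a8 fell at 45 min and did not pass at 180 min. Chil3 did not pass at either time, and S100a9 is only described against resting, since it was tested through its resting signals. Of the 6 genes, 0 were higher and 1 lower at 45 min, when 16.7% of all probe sets were called. At 180 min 3 were higher, when 33.8% were called, and from 45 to 180 min 4 were higher, when 13.9% were called. The lower S100a9 signal at 180 min is not counted, since its resting signals alone let it be tested. The wild-type LPS arrays at 180 min are also the control side of the IL-10 comparison by which genes were chosen. The resting arrays differ from the LPS arrays in their CSF-1 label as well, so LPS and the culture cannot be told apart in the first pair of comparisons; the comparison of 180 with 45 min does not use resting cells.

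The acute-phase gene Saa3 had resting signals of 692.3, 154.3, 1323.1 and 44. It gave 363.8 and 309.5 after 45 min of LPS and 48639.5 and 58170.1 after 180 min. The resting arrays enclosed both 45-min arrays, and both 180-min arrays lay far above all others. The difference from resting was 0.04 ± 0.56 at 45 min (adjusted p = 0.969; 95% interval -1.11 to 1.20). At 180 min it was 7.15 ± 0.56, a 142-fold rise (limma adjusted p = 3.18e-10), and against 45 min 7.11 ± 0.65 (adjusted p = 1.81e-08).

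Lcn2, the siderophore-binding lipocalin, had resting signals of 24.5, 129.8, 203.1 and 170.5. Its signals were 36.2 and 77.4 after 45 min of LPS and 2223.9 and 3048.5 after 180 min. As for Saa3, the 45-min arrays fell inside the resting range and the 180-min arrays above it. At 45 min the difference was -0.66 ± 0.34 (limma adjusted p = 0.196), and without resting replicate 1, the lowest of the 4, Lcn2 was called lower (-1.04, adjusted p = 0.00686). Over resting the rise at 180 min was 4.0 ± 0.34, 16.1-fold (limma adjusted p = 1.43e-09), and over 45 min 4.66 ± 0.39 (adjusted p = 4.46e-09). These values come from the Lcn2 probe set with the higher mean. The other one stayed between 186.4 and 548 on all 32 arrays and differed by 0.06 ± 0.26 at 180 min (adjusted p = 0.887), so the pair disagreed. Over the 16 group means the 2 probe sets had a Pearson r of 0.63, and the mean of both is given as an alternative in the closing section.

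The calgranulin gene S100a8 had resting signals of 175.3, 418.1, 919 and 640.3, against 97.6 and 145.6 after 45 min of LPS and 514.9 and 370.7 after 180 min. All resting arrays lay above both 45-min arrays, while the 180-min arrays lay inside the resting range. S100a8 fell by 1.60 ± 0.37 on the log2 scale at 45 min (3.03-fold lower, limma adjusted p = 0.00396), a call that was lost without wild-type LPS 45 min replicate 1 (adjusted p = 0.0739). At 180 min it differed from resting by -0.08 ± 0.37 (adjusted p = 0.901; 95% interval -0.85 to 0.69). From 45 to 180 min it rose by 1.52 ± 0.43 (2.87-fold, limma adjusted p = 0.0174), but not without wild-type LPS 45 min replicate 1 (adjusted p = 0.147) or LPS 180 min replicate 1 (0.139).

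Its partner S100a9 had resting signals of 61.7, 161.5, 396.9 and 527.9. After LPS it gave 67.9 and 77.6 at 45 min and 25.4 and 21.2 at 180 min. The lowest resting array lay below both 45-min arrays, while all resting arrays lay above both 180-min arrays. S100a9 passed the filter on low signal through 2 resting arrays alone, so it had to be high in resting cells to be tested, and its differences from resting are given without a p. They were -1.19 ± 0.51 at 45 min and -1.93 ± 0.51 at 180 min. In the 28 stimulated arrays it stayed between 8.7 and 103.1. The group means of S100a8 and S100a9, whose proteins pair, had a Pearson r of 0.21 over the 16 groups.

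Chil1, the chitinase-like protein also called BRP-39, had resting signals of 12.6, 57.3, 12.4 and 40.4. Its signals were 14.3 and 20.7 after 45 min of LPS and 1721.7 and 1809.6 after 180 min. No resting or 45-min array came near the 180-min arrays. The Chil1 rise over resting at 180 min was 4.53 ± 0.30 (23.1-fold, limma adjusted p = 1.62e-11) and over 45 min 4.75 ± 0.35 (adjusted p = 5.33e-10). Since the starting signals were so low, the size hung on the pseudocount: with 10 the rise over resting was 5.62 and with 200 it was 3.10.

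Chil3, the chitinase-like protein also called Ym1 and used as a marker of alternative activation, had resting signals of 149.4, 250.1, 395.2 and 420.7. It gave 205.7 and 85.5 after 45 min of LPS and 131.2 and 169.1 after 180 min. The lowest resting array lay among the LPS arrays at both times. The differences from resting, -0.85 ± 0.40 at 45 min (limma adjusted p = 0.159) and -0.75 ± 0.40 at 180 min (adjusted p = 0.166), did not pass.

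**Figure D1:**
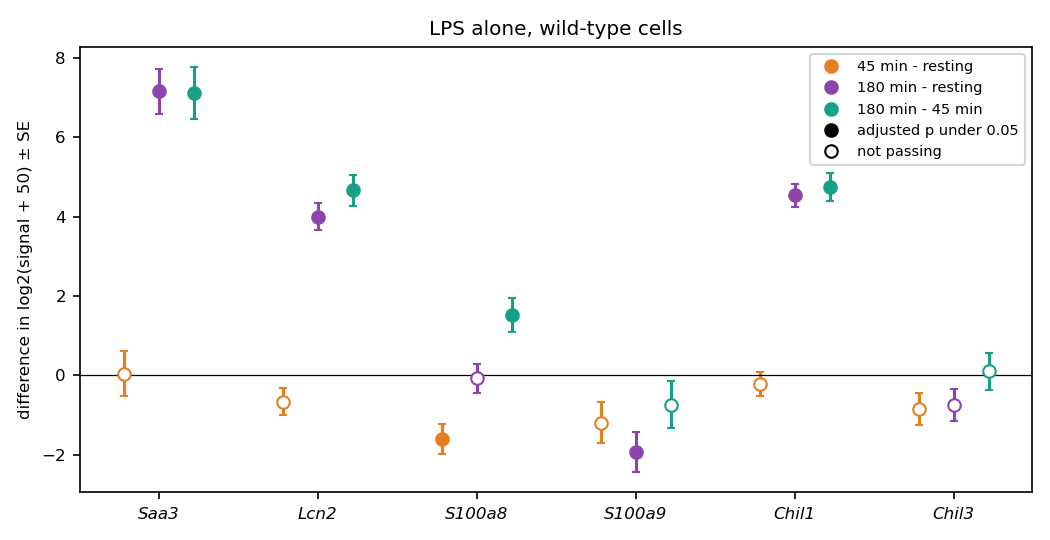
Differences in log2(signal + 50) between wild-type groups given LPS alone and resting cells, or between both times of LPS, for each gene. Points are limma estimates (n = 2 arrays for LPS, 4 for resting), bars are SE and filled points passed an adjusted p of 0.05. S100a9 was tested only through its resting arrays, so its filled point is not read as a call. At 45 min against resting Saa3 was at 0.04, Chil1 at -0.22 and Lcn2 at -0.66. At 180 min against resting these genes lay between 4.0 and 7.15.

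Some markers of another cell type were also higher in resting cells, and others were not. Of 16 neutrophil and granulocyte markers, 14 were on the array and 6 passed the filter. At each time 0 of these 6 rose and 2, Mpo and Mmp8, were called lower than resting, where 16.7% of all probe sets were called at 45 min and 33.8% at 180 min. Like S100a9, Mpo and Mmp8 passed the filter through 2 resting arrays alone, so nothing is read from those calls. Elane, Prtn3, Camp and Csf3r did not pass at either time, and Csf3r differed by 0.28 ± 0.26 at 45 min and 0.14 ± 0.26 at 180 min. Mpo, myeloperoxidase, had resting signals of 187.5, 209.8, 110.1 and 274.1 and at most 71.6 after LPS alone in wild type. The summed signal of the 14 markers was 2708.6 to 4048.6 in resting arrays, 2172.1 to 3347.2 after 45 min and 2240 to 2480.6 after 180 min, and much of it was Csf3r, the G-CSF receptor gene. The 13 others, a sum chosen after the data were seen, gave 1645.8 to 2415.9 in resting arrays. They gave 1006.3 to 1337.8 after 45 min and 949.1 to 982.3 after 180 min. In that sum, which still holds Mpo and Mmp8, every resting array lay above every LPS array. The sum of all 14 overlapped between resting and 45 min. Of the defining markers, Ly6g, Ctsg, Cxcr2 and Epx stayed under a signal of 200 on all 32 arrays. Ly6g ran from 30.1 to 93.5 in resting arrays and from 40.3 to 126.7 after LPS alone in wild type. The part of such cells in the S100a8 and S100a9 values was not tested.

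At 45 min Saa3 was the 1 gene of the 6 that was called with IL-6, and it was higher with IL-10 as well. The question of this arm is whether IL-6, whose receptor shares STAT3 with that of IL-10, changes the early LPS response. With LPS and IL-6 wild type had Saa3 signals of 2743.9 and 2506.6, IL-10-/- had 1478.8 and 1358, and IL-6-/- had 3012.8 and 2715.4. With LPS alone they were 363.8 and 309.5, 308.2 and 310.8, and 856.2 in the single IL-6-/- array. In each genotype every array with IL-6 lay above every array without it, and the share of all probe sets that did so was not counted.

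Over the mean of the 3 genotypes Saa3 rose by 2.17 ± 0.40 with IL-6 (4.49-fold, limma adjusted p = 0.00644), when 0.547% of all probe sets were called, and the other 5 genes did not pass. Their differences lay between -0.24 (S100a8) and 0.02 (Lcn2). In wild type S100a9 gave 9.3 and 10.5 with IL-6, below the 67.9 and 77.6 without, a difference of -1.03 ± 0.59 that did not pass. In IL-10-/- it gave 8.7 and 59 against 14.8 and 57.4 without. In IL-6-/- S100a9 gave 59.4 and 46.4, above the 18.8 of the single array without. All these signals were under 200. Within single genotypes 0 of the 6 genes passed in limma, and at an unadjusted p under 0.05 Saa3 alone did, in each genotype. Saa3 gave 2.79 ± 0.65 in wild type (adjusted p = 0.0928; 0.219% of probe sets called), 2.03 ± 0.65 in IL-10-/- (adjusted p = 1; 0.0365%) and 1.68 ± 0.79 in IL-6-/- (adjusted p = 1; 0.0730%). The resting arrays, whose Saa3 signals spread most, enter the spread that these tests share. In a fit without them, added after the data were seen, Saa3 passed in wild type (adjusted p = 3.48e-10) and IL-10-/- (1.18e-07) with the same differences.

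IL-10-/- cells had lower Saa3 signals with IL-6 than wild type, 1478.8 and 1358 against 2743.9 and 2506.6. The difference of -0.87 ± 0.65 did not pass (limma adjusted p = 1; 0.207% of probe sets called), but did in the fit without the resting arrays (adjusted p = 0.00371). Whether the rise with IL-6 itself was smaller in IL-10-/- than in wild type was tested as a difference of differences, which gave -0.76 ± 0.91 (adjusted p = 0.996) and 0.497 without the resting arrays. Under LPS alone at 45 min, 0 of the 6 genes differed between IL-10-/- and wild type in limma, at an adjusted p or at an unadjusted p under 0.05; 0.377% of probe sets were called. Saa3 differed there by -0.10 ± 0.65, with a 95% interval of -1.43 to 1.23.

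With IL-10 added for 45 min wild type had Saa3 signals of 3068.5 and 3095.4. IL-10-/- had 3144.7 and 3428, and the IL-6-/- arrays 4491.7 and 4112.5. In each genotype these arrays lay above those with IL-6 and those with LPS alone, but IL-10 was given at 10 ng/ml and IL-6 at 2 ng/ml, so the cytokines were not compared at matched doses. The described differences from LPS alone were 3.02 in wild type, 3.21 in IL-10-/- and 2.26 in IL-6-/-. For wild type 15.8% of all probe sets, and for IL-10-/- 16.2%, were higher with no overlap, and of the 6 genes Saa3 was the one among them in each. Lower with no overlap were 17.0% of all probe sets in wild type, with S100a9 among them, and 17.6% in IL-10-/-, with Chil1 and Chil3 among them. S100a9 gave 33.7 and 17.1 in wild type (-0.71 ± 0.59), but 49.6 and 70.1 in IL-10-/- against 14.8 and 57.4 without (0.39 ± 0.59). Chil1 gave 8.4 and 4.2 in IL-10-/- against 34.2 and 23 without (-0.48 ± 0.35), and Chil3 98.9 and 85.5 against 124.2 and 118.2 (-0.27 ± 0.47). Over the mean of the 3 genotypes the 5 genes other than Saa3 lay between -0.24 (Chil1) and 0.09 (Chil3).

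**Figure D2:**
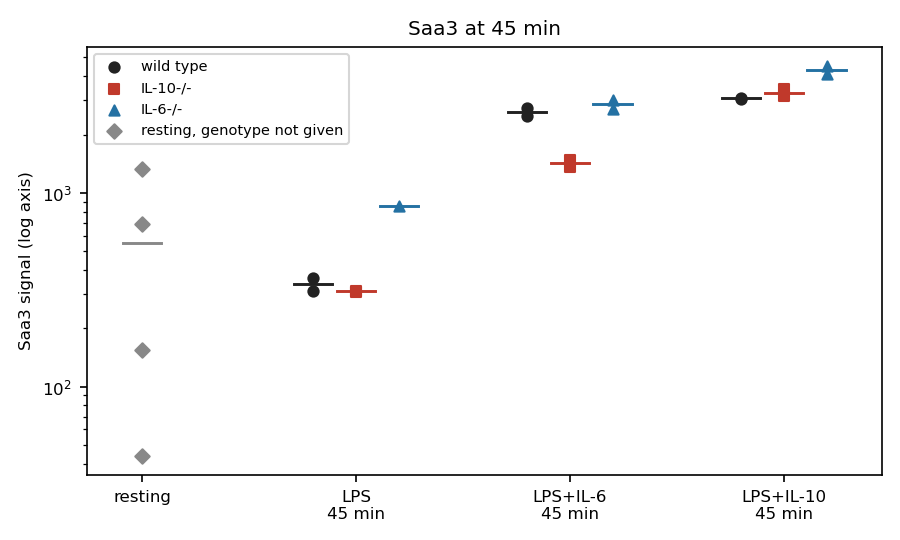
Saa3 signal on a log axis in resting cells and after 45 min of LPS alone, with IL-6 or with IL-10, by genotype. Points are arrays and ticks are group means; the 6 arrays with IL-6 lie between 1358 and 3012.8, and the 6 arrays with IL-10 between 3068.5 and 4491.7.

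At 180 min the genes fell into those that were lower in IL-10-/- cells and higher with added IL-10, and those that were not. Saa3, Lcn2, S100a8 and Chil1 had lower signals in IL-10-/- than in wild type under LPS alone, and each was higher with IL-10. S100a9 and Chil3 showed no such pattern. These arrays are those by which genes were chosen, so what follows is a description. In IL-10-/- against wild type 20.0% of all probe sets were lower with no overlap, with these 4 genes among them. With IL-10, 16.4% were higher with no overlap in wild type, among them Saa3, Lcn2, S100a8, S100a9 and Chil1. In IL-10-/- 20.0% were higher, among them Saa3, Lcn2, S100a8 and Chil1.

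For Saa3 the IL-10-/- signals under LPS alone were 12007.2 and 12346.5, 4.35-fold below wild type (-2.12 ± 0.65). Added IL-10 brought them to 66383.9 and 57391.4, a difference of 2.34 ± 0.65. In wild type IL-10 gave 64445.2 and 71972.4, a difference of 0.36 ± 0.65. The single IL-6-/- array with LPS alone stood at 60315.3 and those with IL-10 at 54856.5 and 75260.9, so that here the groups overlapped. With IL-10 all 3 genotypes overlapped at 180 min. On each of these 6 arrays Saa3 was the brightest of the 12422 probe sets, and whether the signal still followed the amount of RNA at that level was not tested.

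Lcn2 in IL-10-/- gave 348.5 and 465.3 under LPS alone, 5.86-fold below wild type, and 2869.6 and 2985.8 with IL-10 (2.72 ± 0.39). In wild type the signals with IL-10 were 3805.7 and 3998.1 (0.57 ± 0.39). In IL-6-/- the lone LPS array gave 3431.4 and those with IL-10 5485.7 and 6291. The highest Lcn2 signals were therefore in IL-6-/- with IL-10, above every other array.

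S100a8 in IL-10-/- gave 244.6 and 227.5 under LPS alone and 1500.3 and 1482.3 with IL-10 (2.43 ± 0.43). In wild type IL-10 gave 1157.1 and 927.3 (1.16 ± 0.43). In IL-6-/- the signal was 579 without and 3022.3 and 2453.1 with IL-10 (2.14 ± 0.52). Of the 4 genes S100a8 had the largest difference with IL-10 in wild type, and all arrays with IL-10 at 180 min lay above the highest resting array, 919. The 14 neutrophil markers summed to 2869.1 to 3328.1 with IL-10 in wild type, against 2240 to 2480.6 without, but the 13 other than Csf3r gave 881.2 to 1135.8 against 949.1 to 982.3, which overlap. In IL-10-/- the 14 summed to 2219.5 to 2792.4 with IL-10 and 2700.2 to 2876.4 without, and the 13 to 1075.5 to 1125.8 and 1183.3 to 1223.7. In IL-6-/- the 13 summed to 998.6 to 1093.9 with IL-10 and 831.3 without. Of the 6 tested markers 0 passed over the mean of the 3 genotypes in limma, and 1 had an unadjusted p under 0.05; their part in the S100a8 values was not tested.

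Chil1 in IL-10-/- gave 305.8 and 191 under LPS alone, 6.2-fold below wild type, and 4429.3 and 3808 with IL-10 (3.83 ± 0.35). In wild type IL-10 gave 2242.4 and 2039.4 (0.27 ± 0.35). In IL-6-/- the lone LPS array gave 16.9, inside the resting range, and those with IL-10 161.8 and 158.8. That IL-6-/- array lay 27.1-fold below wild type, a value with 1 array behind it, while its Saa3, Lcn2 and S100a8 signals were above both wild-type arrays.

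S100a9 and Chil3 had mean differences with IL-10 at 180 min of 0.11 ± 0.37 and 0.01 ± 0.29 over the 3 genotypes. The S100a9 signals with IL-10 in wild type, 63.6 and 39.1, were above those without, 25.4 and 21.2, but stayed in the range of the other stimulated groups. Chil3 ran from 121.6 to 218.9 over the arrays at 180 min.

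**Figure D3:**
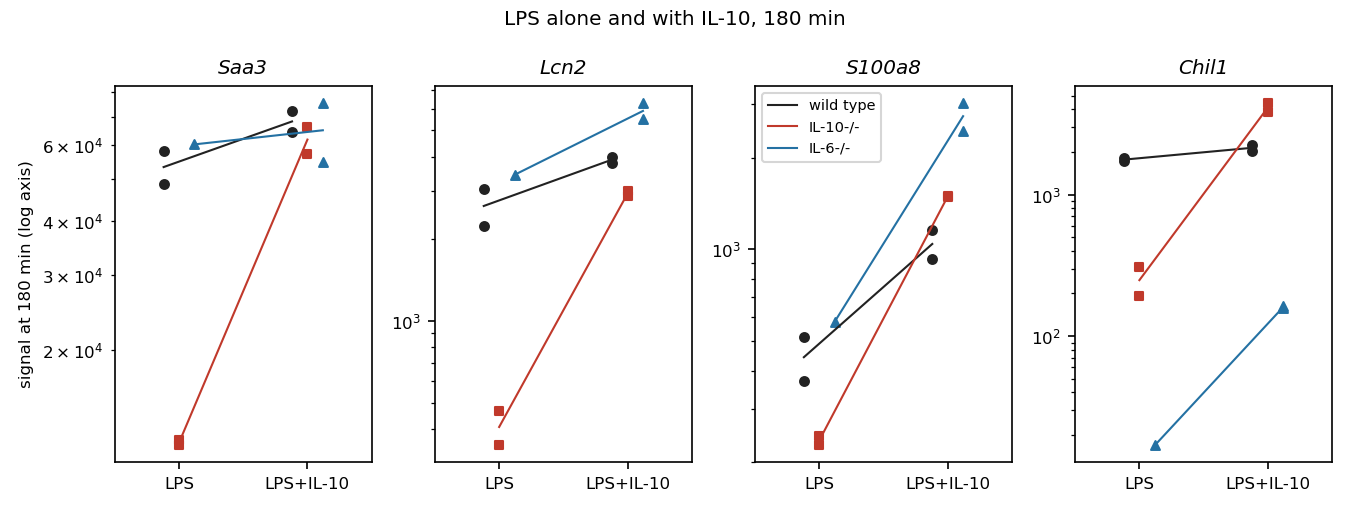
Signal on a log axis at 180 min with LPS alone and with LPS and IL-10 for Saa3, Lcn2, S100a8 and Chil1. Points are arrays, lines join group means and colours are genotypes (n = 2 each, 1 for IL-6-/- with LPS alone); the IL-10-/- lines start lowest for Saa3, Lcn2 and S100a8, whereas the IL-6-/- line is lowest for Chil1, from 16.9 to a mean of 160.3.

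With IL-10 present at 180 min the knockouts are compared with wild type as a description too, since the choice of genes used these IL-10 arrays. Chil1 was 10.4-fold lower in IL-6-/- than in wild type (-3.38 ± 0.35). It was lower in both IL-6-/- arrays, and the difference ran from -3.45 to -3.31 when single arrays were left out. S100a8 differed by 1.35 ± 0.43 in the same comparison. Between IL-10-/- and wild type with IL-10, Chil1 differed by 0.93 ± 0.35, and by 0.88 with a pseudocount of 200.

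Seen across all 16 groups, each gene had its own order of levels. Saa3 was highest in the 3 groups with IL-10 at 180 min (means of 68209, 65059 and 61888) and in IL-6-/- with LPS at 180 min, neighbours that overlapped. Below them came wild type with LPS at 180 min (53405), IL-10-/- (12177), the groups with IL-10 at 45 min, those with IL-6, and then IL-6-/- with LPS at 45 min, resting, wild type and IL-10-/- with LPS at 45 min, where the last 4 overlapped in turn. For Lcn2 the order ran from 5888.4 in IL-6-/- with IL-10 to 406.9 in IL-10-/- with LPS at 180 min, followed by resting at 131.98 and the 45-min groups, each of which overlapped its neighbour. In that upper stretch the neighbours did not overlap, apart from IL-10-/- with IL-10 and wild type with LPS.

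S100a8 had 3 separate groups at the top, IL-6-/- (2737.7), IL-10-/- (1491.3) and wild type (1042.2) with IL-10 at 180 min. Next came IL-6-/- with LPS at 180 min, resting and wild type with LPS at 180 min, which overlapped, then IL-10-/- (236.05), and last the 45-min groups between 86.05 and 167.1. Chil1 had 5 groups that did not overlap, from 4118.6 in IL-10-/- with IL-10 through 2140.9 and 1765.6 in wild type with and without it to 248.4 in IL-10-/- and 160.3 in IL-6-/- with IL-10. The remaining 11 groups, resting and IL-6-/- with LPS at 180 min included, lay between 6.3 and 30.675. S100a9 and Chil3 were highest in resting cells, at 287 and 303.85, and each overlapped the next group below.

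**Figure D4:**
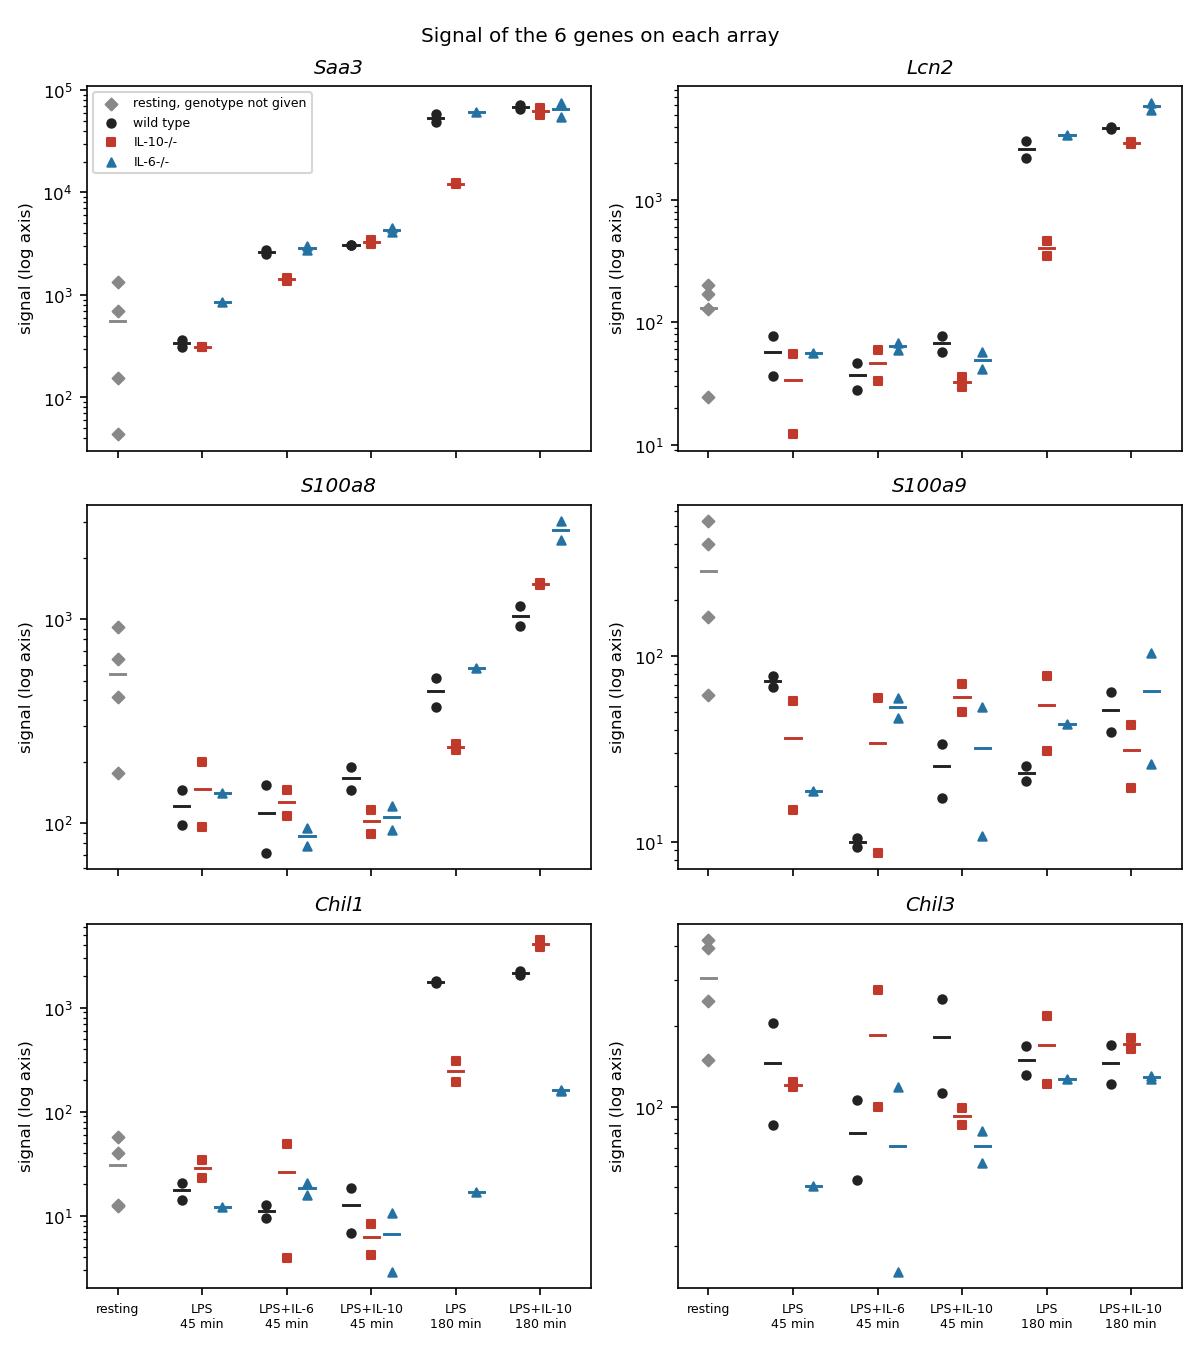
Signal of each gene on every grouped array, on log axes with their own scale, in resting cells and in the 5 stimulations by genotype. Points are arrays and ticks are group means; Saa3, Lcn2, S100a8 and Chil1 are highest among the groups at 180 min, while S100a9 and Chil3 have their highest means, 287 and 303.85, in resting cells.

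The genes whose group means followed each member most closely were looked up by Pearson r of log2 signal over the 16 groups, as a description; the groups share time and stimulus. For Saa3 they were Fas (0.974), which encodes a death receptor, Fcgr2b (0.972), the inhibitory Fc receptor, Dcun1d5 (0.966), Cebpd (0.965), which encodes C/EBP delta, and Dusp16 (0.962). For Lcn2 they were Ebi3 and Rhou (both 0.982), Cp (0.980), Ghrl (0.979) and Znrf1 (0.978). Cp encodes the copper-carrying acute-phase protein ceruloplasmin, and Ebi3 a subunit of IL-27 and IL-35. Ldha (0.931) and Tpi1 (0.927), both of glycolysis, were among the 5 nearest S100a8, with Tmem11 (0.945), Cdk16 and Phf23.

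The nearest genes to Chil1 were Mmp10 (0.896), Upp1, Gdap10, Map4k4 and Zeb1. Mmp10, the protease stromelysin 2, had a signal of 21.8 in the lone IL-6-/- LPS array at 180 min against a mean of 188.2 in wild type. In IL-10-/- with LPS at 180 min its mean was 231.8, above wild type, whereas Chil1 was lower there than in wild type. The nearest to S100a9 (Cdca8, 0.870, then Phf7, Dvl2, Ppfibp2 and Smdt1) and to Chil3 (Cox6b2, 0.911, then Lor, Tnp1, Tcl1 and Nr5a1) had their highest means in resting cells. Without the resting group 4 of the 5 neighbours of Saa3 and 3 of those of Lcn2 were found again, but 0 of those of S100a9. With Spearman's rho in place of r, 3 of the 5 were shared for Saa3, 1 for Lcn2 and 0 for Chil1. Among the members, Lcn2 had an r of 0.91 with S100a8 and 0.90 with Saa3, while Chil1 and Chil3 had 0.35.

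Part of the wider acute-phase list rose with LPS. Of 26 listed, 21 were on the array and 9 passed the filter; 3 of these 9 rose and 0 fell at 45 min of LPS, when 16.7% of all probe sets were called, and 6 rose and 0 fell at 180 min, when 33.8% were, with a median of 1.64 against -0.09 over all probe sets. Those at 180 min included Il1rn, the IL-1 receptor antagonist (5.70 ± 0.15, limma adjusted p = 4.16e-19), Cp (3.98 ± 0.32), Ptx3, a pentraxin (3.68 ± 0.28), and Saa2 (3.14 ± 0.43). The Saa2 probe set is of a type that can bind related transcripts, so its values may include other serum amyloid A genes. With IL-6, Il1rn alone of the 9 rose (1.03 ± 0.11, adjusted p = 1.67e-06).

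With IL-10 at 180 min, over the mean of the 3 genotypes, 4 of the 9 rose and 0 fell, when 3.82% of all probe sets were called: Il1rn (1.91 ± 0.11), Saa2 (1.82 ± 0.31), Cp (1.75 ± 0.23) and Hp, haptoglobin (0.91 ± 0.17). The list's median was -0.03, against -0.01 over all probe sets. Here and below the gene lists were chosen with earlier results of these arrays known, so their counts with IL-10 are a description. At 45 min, when 1.03% were called, Il1rn (1.99 ± 0.11) and Saa2 (1.52 ± 0.31) rose. Crp, Orm1, A2m and the fibrinogen genes Fga, Fgb and Fgg, acute-phase genes of the liver, stayed under a signal of 200 on all arrays.

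With IL-10, the other S100 genes did not pass. Of 12 listed, 11 were on the array and 8 passed the filter. With LPS alone against resting in wild type, 2 fell and 0 rose at 45 min (S100a13, -0.70 ± 0.21, and S100a10, -0.66 ± 0.19). At 180 min of LPS alone 2 fell (S100a13, -0.67 ± 0.21, and S100a4, -0.62 ± 0.19). Of all probe sets 16.7% and 33.8% were called at these times. S100a10, like S100a8, was lower at 45 min of LPS and did not pass at 180 min (-0.08 ± 0.19, limma adjusted p = 0.788). With IL-10 at 180 min 0 of the 8 passed in limma, and 0 had an unadjusted p under 0.05; S100a6 gave 0.01 ± 0.13. Of 8 other chitinases and chitinase-like genes 1, Chia1, passed the filter, and of 7 lipocalins and related carriers 2 did, with Ptgds the brighter. In limma 0 of these 3 genes passed in any of the 7 comparisons, at an adjusted p or at an unadjusted p under 0.05.

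Of 14 listed receptors of the proteins, 8 were on the array and 6 passed the filter. At 45 min of LPS 0 rose and 2 fell, and at 180 min 1 rose and 1 fell, beside 16.7% and 33.8% of all probe sets called. Fpr2, a formyl peptide receptor that binds serum amyloid A, rose at 180 min of LPS (2.89 ± 0.31, limma adjusted p = 7.51e-08). Scarb1, a scavenger receptor for lipoproteins, fell by 1.46 ± 0.23 at 45 min and by 1.68 ± 0.23 at 180 min. Bsg, basigin, fell by 0.66 ± 0.16 at 45 min. With IL-10 at 180 min 0 of the 6 passed in limma and 2 had an unadjusted p under 0.05.

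A list of 20 C/EBP, STAT and NF-kappaB genes also held cytokine receptors and the feedback inhibitor Socs3, and 17 were tested. At 45 min of LPS 5 rose, Il10ra and Socs3 among them, and 0 fell, when 16.7% of all probe sets were called. At 180 min 9 rose, Il6st and Socs3 among them, and 2 fell, when 33.8% were called. Nfkbiz, which encodes the nuclear NF-kappaB cofactor IkappaB-zeta, rose by 4.95 ± 0.21 at 45 min (limma adjusted p = 7.07e-15) and stood 4.71 ± 0.21 above resting at 180 min. Cebpb rose at both times (1.18 ± 0.25 and 1.34 ± 0.25), and Cebpd at 180 min (3.04 ± 0.19, adjusted p = 4.99e-12), when Cebpa fell by 2.27 ± 0.26.

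With IL-6 at 45 min 2 of the 17 rose, when 0.547% of all probe sets were called. They were Cebpd (1.01 ± 0.14, limma adjusted p = 0.000123) and Socs3, the feedback inhibitor of STAT3 signalling (0.89 ± 0.17). With IL-10 at 45 min, when 1.03% were called, Cebpd rose by 1.39 ± 0.14 and Socs3 by 1.24 ± 0.17. At 180 min of IL-10, when 3.82% were called, 4 rose and 0 fell. They were Stat3 (0.89 ± 0.11), Cebpd (0.75 ± 0.14), Bcl3 (0.71 ± 0.19) and Cebpb (0.70 ± 0.18). Of the genes listed beside Chil3 as markers of alternative activation, 5 were tested. With IL-10 at 180 min, beside the same 3.82%, 2 rose (Il4ra, 1.63 ± 0.11, and the mannose receptor gene Mrc1, 1.13 ± 0.25). The 2 that fell were Ccl17, by 1.62 ± 0.25, and Ccl22, by 1.42 ± 0.24. Ccl17 passed the filter through only 2 of the 32 arrays, so nothing is read from its fall. In the same comparison with IL-10 at 180 min Chil3 differed by 0.01 ± 0.29.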

How the data were processed

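RNA of bone-marrow-derived macrophages was measured on 34 Affymetrix arrays. The deposited intensity of each probe set, on a linear scale, came from MAS5 per the submitters' processing notes, which give no version; each array had been scaled by the authors to a trimmed mean of 500.29 to 500.4. The arrays were not scaled again. Signals were taken to log2 of the signal plus 50, and probe sets with at least 200 on at least 2 of the 32 grouped arrays were kept: 8224, for 6070 genes. A model with a mean for each of the 16 groups was fitted in R 4.3.3 with limma 3.58.1 (lmFit, then eBayes with a trend), with 2-sided p-values adjusted by Benjamini-Hochberg; the model was tested on simulated data. Where several probe sets share a symbol, the one with the highest mean stands for the gene. Of the probe sets, 10855 have 1 symbol, 396 several and 1237 are not listed; symbols are those of the platform table. Left out were 66 control probe sets and 2 arrays, 1 whose title has no genotype and 1 whose title and protocol disagree on the time.

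Members and gene lists (acute-phase, S100, chitinases, lipocalins, receptors, regulators, alternative activation, neutrophil, macrophage, dendritic cell) were chosen with earlier results of these data known. Named were all members, the 5 genes nearest each, up to 4 called genes with the largest difference from each list, or the brightest where none was called, and Cebpb, Cebpd, Stat3 and Nfkbiz; other genes were named after their values were seen. Of 5 dendritic cell markers on the array 4 were tested, and 1 rose at 45 min of LPS and 1 fell at 180 min. The one that fell, Ccr7, passed the filter through only 2 arrays, so nothing is read from it. Of 12 macrophage markers 4 fell at 45 min of LPS, and 7 fell and 1 rose at 180 min. Of all probe sets 16.7% were called at 45 min and 33.8% at 180 min. The alternatives were pseudocounts of 10 and 200, quantile normalization, no filter or 1 at 500, a replicate block, eBayes with no trend, leaving out single arrays, the mean of both Lcn2 probe sets, wild type and IL-10-/- alone, other neighbour measures and, chosen after seeing the data, a fit without the resting arrays and the neutrophil sum without Csf3r. Promoter windows and starts are RefSeq's for GRCm38.p6.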

Additional observations from a re-analysis of the deposited data

Results flagged for a closer look

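The array whose title gives 45 min and whose protocol gives 180 min entered no comparison. Its signals of 63550.6 for Saa3, 3390.8 for Lcn2 and 74.9 for Chil1 were each above all 4 resting arrays, whose highest values were 1323.1, 203.1 and 57.3. The highest signals of the grouped 45-min arrays were 4491.7 for Saa3 and 77.4 for Lcn2. The IL-6-/- array with LPS at 180 min gave 60315.3 for Saa3, 3431.4 for Lcn2 and 16.9 for Chil1. The title of the array left out gives IL-6-/-, and which time that array stands for was not inferred.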

How the results depend on the processing

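With a replicate block 70 probe sets in place of 45 were called for IL-6, 92 in place of 31 for IL-10-/- against wild type at LPS 45 min, 509 in place of 314 for IL-10 at 180 min and 138 in place of 85 for IL-10 at 45 min. The titles only share a number: same-numbered arrays correlated from -0.012 to 0.441 (median 0.117) over 78 pairs of groups, with 46 above 0.1. Replicate numbers 3 and 4 exist in resting cells alone, so the block fitted those resting arrays exactly and compared with replicates 1 and 2. Its counts and calls therefore mix the block with the loss of resting replicates 3 and 4. Among members the block moved S100a9 at 180 min of LPS from -1.93 to -1.07. It added Saa3 with IL-6 in wild type (limma adjusted p = 3.92e-05) and in IL-10-/- (0.00504). The fit without the resting arrays gave 76, 82 and 137 for IL-6, the IL-10-/- comparison and IL-10 at 45 min. Wild type and IL-10-/- alone gave 26 for IL-6.

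Leaving out single arrays gave 695 to 1482 called probe sets for LPS at 45 min (1377 with all; 718 without LPS replicate 1 and 695 without replicate 2), 1954 to 2824 for 180 min, 728 to 806 for 180 against 45 min (1143 with all; 739 without LPS 180 min replicate 2, 728 and 753 without LPS 45 min replicate 1 and 2), 32 to 39 for IL-6, 6 to 10 for IL-10-/- against wild type at LPS 45 min (whichever of its 4 arrays was left out), 239 to 274 for IL-10 at 180 min and 74 to 85 at 45 min. The lone IL-6-/- LPS arrays could not be left out. With a pseudocount of 200 Saa3 passed with IL-6 in wild type (2.40, 0.0148). Chil1 with IL-10 at 180 min gave 2.32 with a pseudocount of 10 and 1.42 with 200, and the mean of both Lcn2 probe sets 0.71 in place of 1.35, with 1.29 in place of 2.72 in IL-10-/-, and -1.22 in place of -2.55 for IL-10-/- against wild type at 180 min of LPS. S100a9 and Chil3 did not pass the filter at 500. No called member changed direction under any alternative run. Folds from signals under 200 are limited by background.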
